A study of Mus musculus with 5 samples.

Results

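Intermediate filaments are the rope-like cytoskeletal polymers of cells, and brain cells are told apart by which of them they build. The genes described here are the 8 of the brain's glial and neuronal filaments: Gfap, Vim, Nes, Nefl, Nefm, Nefh, Ina and Prph. They were chosen by symbol, through the RefSeq accessions that the array's probes carry, out of 21149 genes named that way. All 8 were on the array, with 11 probes in all, and all 11 probes were well above background on all 5 arrays. The tissue was glioma, called brain tumor in the labels, and normal brain, all of it collected from mice at postnatal day 150. There were 3 glioma arrays and 2 of normal brain. The gliomas came from a model based on mosaic analysis with double markers (MADM), a method in which recombination between chromosomes during division leaves sparse, colour-marked cells. The labels give no strain, mutated gene, brain region, pooling or tumour dissection, and do not say whether the numbered replicates were separate animals. The p-values then cover only how far these particular samples spread, which may be technical.

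Gfap encodes glial fibrillary acidic protein, the filament of mature and reactive astrocytes. Vimentin (Vim) is built by radial glia, immature glia and many cells of vessels and connective tissue, and nestin (Nes) is the filament protein of neural stem and progenitor cells, which polymerises together with vimentin. Neurons build neurofilaments from a light, a medium and a heavy subunit (Nefl, Nefm, Nefh), with alpha-internexin (Ina) as a further partner in the central nervous system, and these fill the axons of large neurons. Peripherin (Prph) is mainly a filament of peripheral neurons and of neurons that send axons out of the brainstem and spinal cord.

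A level is the log2 of the processed fluorescence signal minus the 75th percentile of the same array, so that a level of 0 is a spot at that percentile. Levels of different genes come from different probes and are not set against each other. The exception is the summed signal of a list, the log2 of its genes' added scaled signals, in which the brightest probes weigh most. A log2 change is the mean of the glioma levels minus the mean of the normal brain levels, ± its standard error from limma, with n = 3 and n = 2. A gene passed when its p-value, adjusted over the 16891 genes tested (Benjamini-Hochberg), was below 0.05. Precision is limited by the number of arrays.

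Facts of the whole series bear on every value below. Between 65.9% and 70.3% of the spots on the glioma arrays were well above background, against 61.5% and 64.0% on the normal brain arrays, and saturation flags were absent outside the control spots. All arrays were on 1 slide with 1 scan, gliomas in 1 row and normal brain in the other, and the effect of the row cannot be told apart from that of the group. Glioma 3 stood apart in sex: Xist was detected on that array alone, and the Y-linked Ddx3y and Eif2s3y on the other 4. The comparison passed 51.4% of all genes tested, 23.6% as higher in glioma and 27.8% as lower, so passing the test is common on these arrays. Among tissue markers, all 14 neuron markers examined (Rbfox3, Snap25 and others) were well above background on every array, glioma included. All 7 oligodendrocyte progenitor markers passed as higher in glioma.

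The promoters of 5 of the 8 genes were in the RefSeq table of promoters (build GRCm38.p6), and the 150 bases before each annotated transcript start are shown here so that a reader can compare the start regions of genes that moved in different directions. For Prph the transcript start used lies inside the annotated gene (chr15:99053579-99058978) and not at its first base. Capitals mark the motifs of the TATA box (TATAAA) and the CCAAT box, found on either strand.
Vim, chr2:13574161-13574310, plus strand: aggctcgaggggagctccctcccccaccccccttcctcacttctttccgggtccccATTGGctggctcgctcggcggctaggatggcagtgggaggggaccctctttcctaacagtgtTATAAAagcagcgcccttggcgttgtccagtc
Nes, chr3:87970943-87971092, plus strand: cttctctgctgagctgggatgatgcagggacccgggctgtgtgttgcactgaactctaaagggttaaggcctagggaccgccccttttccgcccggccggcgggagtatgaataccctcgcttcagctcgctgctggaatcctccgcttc
Gfap, chr11:102897201-102897350, minus strand: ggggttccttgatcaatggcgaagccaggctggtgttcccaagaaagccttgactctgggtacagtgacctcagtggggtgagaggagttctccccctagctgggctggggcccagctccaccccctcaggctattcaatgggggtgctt
Ina, chr19:47014531-47014680, plus strand: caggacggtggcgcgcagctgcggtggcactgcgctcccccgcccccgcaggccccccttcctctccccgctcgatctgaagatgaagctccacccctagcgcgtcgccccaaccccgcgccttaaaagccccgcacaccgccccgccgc
Prph, chr15:99055024-99055173, plus strand: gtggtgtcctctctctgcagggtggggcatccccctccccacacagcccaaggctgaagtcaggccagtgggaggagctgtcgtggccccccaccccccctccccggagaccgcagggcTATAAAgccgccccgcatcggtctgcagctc

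The letters TATAAA stood on the gene's own strand at position -32 in Vim and at -31 in Prph, counted from the transcript start, and in none of the other 3 windows. Over all 32851 promoter windows of 300 bases in the table, 13.6% held TATAAA on either strand, 37.4% held CCAAT and 35.7% held the GC box GGGCGG. Vim held CCAAT on both strands and no GC box, whereas Nes and Ina held 2 GC boxes each and Prph 1. The pattern TTCCNNGAA, a form bound by STAT factors and present in 4.81% of windows, occurred in Gfap alone, across its transcript start. Vim and Nes, which both passed as higher in glioma, shared none of these motifs, and Vim and Prph, which shared the TATA box, differed in whether they passed. The matches describe letters in short windows and not binding.

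Of the 8 filament genes, 6 passed, 2 as higher in glioma and 4 as lower, beside 51.4% of all genes tested. The progenitor filaments Vim and Nes were 11.3-fold and 12.98-fold higher in glioma, the 3 neurofilament subunits were 22.4-fold to 26.5-fold lower, and Ina was 6.19-fold lower. Gfap and Prph did not pass. In 7 of the 8 genes the arrays of the groups did not overlap, which was also so for 74.1% of all genes tested.

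**Figure D1:**
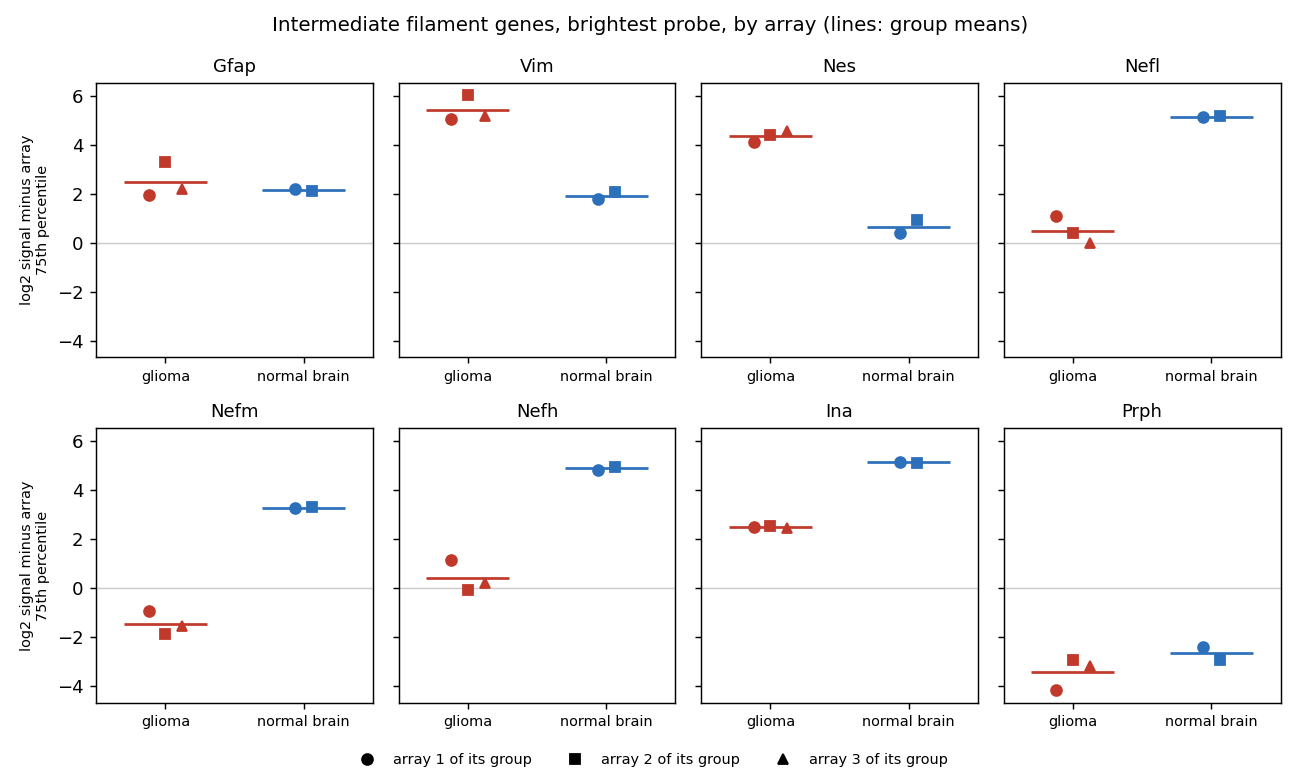
Level of each filament gene on each array (log2 signal minus the array's 75th percentile, brightest probe), gliomas in red at the left and normal brain in blue at the right of each panel, with lines at the group means. Vim and Nes lie higher in all 3 gliomas, Nefl, Nefm, Nefh and Ina lie lower in all 3, and the Gfap points overlap.

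Nestin mRNA had levels of 4.12, 4.39 and 4.58 in gliomas 1 to 3, against 0.40 and 0.93 in the normal brain samples. The gliomas spanned 0.47 and the normal brain samples 0.53, so both groups were narrow beside the gap between them. The log2 change was 3.70 ± 0.24, with a 95% interval of 3.09 to 4.31 (limma adjusted p = 0.00052), which ranked 348 among the 16891 genes tested, counted from the largest rise. As raw processed signal, Nes read 15720, 22080 and 20760 in the gliomas, against 953 and 1416 in normal brain.

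Vimentin mRNA had levels of 5.07, 6.03 and 5.19 in gliomas 1 to 3, against 1.80 and 2.06 in normal brain. Glioma 2 was the highest of the 5 arrays, and the groups did not overlap. The change was 3.50 ± 0.33 on the log2 scale, with a 95% interval of 2.65 to 4.34 (limma adjusted p = 0.00112). Vim is also built by vessel, connective tissue and ependymal cells, and their markers moved the other way. Passing as lower in glioma were 7 of 8 endothelial, 8 of 9 mural and fibroblast and 5 of 5 ependymal markers. Their median log2 changes were -1.21, -1.65 and -3.31, and 27.8% of all genes tested passed as lower. Without either normal brain array 4 endothelial and 1 ependymal marker passed. The part of any single cell type in the Vim value was not tested, and here as for every gene in these bulk samples more cells of a type and more RNA per cell cannot be told apart.

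Gfap, on its brightest probe, had levels of 1.96, 3.32 and 2.20 in gliomas 1 to 3, against 2.19 and 2.12 in normal brain. Glioma 2 stood above all other arrays, glioma 1 was the lowest of the 5, and the groups overlapped. The change was 0.34 ± 0.43, with a 95% interval of -0.77 to 1.44 (limma adjusted p = 0.543). Without glioma replicate 2 it was -0.07 ± 0.16.

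The other Gfap probes gave a different order of the gliomas. Probe A_55_P2157250, which targets another RefSeq transcript of the gene, read 2.55, 2.86 and 1.3 in gliomas 1 to 3, against 1.59 and 1.44 in normal brain. Probe A_55_P2157245, designed on the same transcript as the brightest probe A_52_P52303, read -1.11, -1.16 and -2.09, against -2.21 and -2.02. On both of these probes gliomas 1 and 2 were above both normal brain samples and glioma 3 was within or below them. On the brightest probe glioma 1 was instead the lowest array. Their changes were 0.72 ± 0.49 and 0.66 ± 0.35, and neither passed (limma, adjusted over all probes, 0.287 and 0.182). All 3 Gfap probes thus had a positive change that did not pass. The gliomas differed by up to 2.56-fold on the brightest (1.96 to 3.32) and by more on A_55_P2157250 (1.3 to 2.86).

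**Figure D2:**
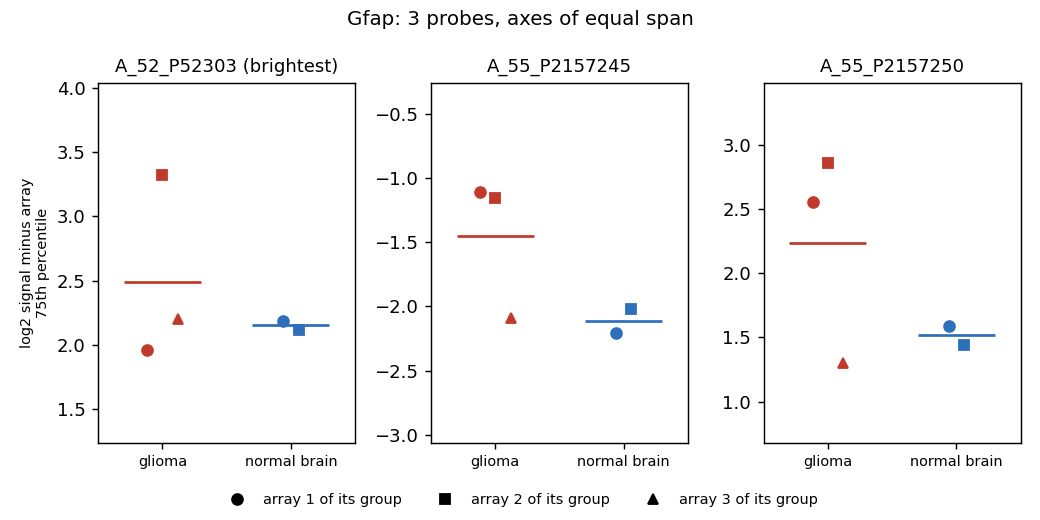
Level of Gfap on each of its 3 probes (log2 signal minus the array's 75th percentile), gliomas in red at the left and normal brain in blue at the right, with lines at the group means and axes of equal span. Glioma 2 is high on all 3 probes, while glioma 1 is above normal brain on the A_55 probes and below it on A_52_P52303.

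Genes that accompany astrocytes did not move as one. Of 10 astrocyte markers other than Gfap, 1 passed as higher in glioma, 4 as lower and 5 did not pass. Over all genes tested 51.4% passed. The median log2 change of these markers was -0.60. Gja1 and Gjb6, the gap junction genes of astrocytes, changed by -3.15 ± 0.58 and -3.1 ± 0.45, the glutamate transporter gene Slc1a2 fell by 2.09 ± 0.21, and the glial transcription factor gene Sox9 rose by 1.58 ± 0.39. Gja1 did not pass without normal brain replicate 1 (-3.12, limma adjusted p = 0.0513). Sox9 did not pass without glioma replicate 1 (1.51, limma adjusted p = 0.0608) or without normal brain replicate 1 or 2 (1.45 and 1.72). The summed signal of the list, on the log2 scale, was 8.51, 8.01 and 7.77 in gliomas 1 to 3, against 8.65 and 8.60 in normal brain. This sum rests largely on Aldoc, which alone read 7.94, 7.34 and 7 in gliomas 1 to 3, against 8.01 and 7.93. Aldoc did not pass (-0.54 ± 0.3, limma adjusted p = 0.189). Without glioma replicate 1 Aldoc passed as lower (-0.79, limma adjusted p = 0.0262).

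In reactive astrocytes Gfap, Vim and Nes are classically raised together. Of 17 tested genes known from that state, 10 passed as higher in glioma and 1 as lower, with a median of 1.89. For every list here, the shares over all genes tested were 23.6% higher and 27.8% lower. The chemokine gene Cxcl10 passed as higher, with levels of 0.97, 1.81 and -0.06 in gliomas 1 to 3, against -3.91 in normal brain 2 and a spot not well above background in normal brain 1. Its fitted change of 6.27 ± 1.00 rests in part on that unmeasured spot and was 3.88 to 7.73 across the alternatives. The protease inhibitor gene Serpina3n rose by 2.95 ± 0.56, and Timp1, an inhibitor of matrix proteases, rose by 2.17 ± 0.67. Tenascin C (Tnc), a matrix protein gene, was at least 6.54-fold higher, a bound taken against the lowest detected signal of each normal brain array because it was not well above background there. The small heat shock protein gene Hspb1 fell by 0.97 ± 0.27. The 10 higher genes became 5 when either normal brain array was left out, and Serpina3n, Timp1 and Hspb1 did not pass without either of them. Timp1 also did not pass with normexp or without glioma replicate 1, nor Hspb1 in the unscaled value table or without glioma replicate 1. Several of these genes are not confined to astrocytes, and 4 of 8 microglia and macrophage markers also passed as higher (2 without glioma replicate 1, 1 without either normal brain array), with a summed log2 signal of 6.33, 7.13 and 5.69 in gliomas 1 to 3, against 5.53 and 5.61. Glioma 2, the highest array for Gfap and Vim, was also the highest for these immune markers. For mature oligodendrocyte markers, of which 6 of 8 passed as lower in glioma (3 without normal brain replicate 2), it was the highest glioma but below normal brain, with 6.86, 8.41 and 5.80 in gliomas 1 to 3, against 8.52 and 8.63. The oligodendrocyte sum of glioma 2 rests largely on Mag, which read 5.33, 7.74 and 3.15 in gliomas 1 to 3, against 5.18 and 5.32. Mag did not pass (0.15 ± 1.32). The part of microglia, macrophages and oligodendrocytes in the Gfap and Vim values was not tested.

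Markers of progenitors stood beside Vim and Nes. Of 10 neural stem and progenitor markers, 7 passed as higher and 1 as lower, with a median of 1.90. Of 7 oligodendrocyte progenitor markers all 7 passed as higher, with a median of 3.37. Among all genes tested 23.6% passed as higher and 27.8% as lower. The radial glia gene Fabp7 rose by 5.09 ± 0.14 and the proteoglycan gene Cspg4 by 4.74 ± 0.17. Msi1, an RNA-binding protein of progenitors, fell by 1.17 ± 0.16 on the brightest probe, but its change was 0.11 as a mean over probes.

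The transcription factors that are known to act on the Gfap, Vim or Nes genes were mostly higher in glioma. Of 11 such genes, 9 passed as higher and 1 as lower, with a median of 1.56, beside 23.6% and 27.8% of all genes tested. The lists share genes: Sox2, Sox11 and Hes5 are also among the neural stem and progenitor markers, and Sox9 among the astrocyte markers. Hes1 and Hes5, which carry out Notch signals, rose by 2.68 ± 0.46 and 1.87 ± 0.41, Hes1 being detected on 1 of 2 normal brain arrays and its change 1.2 to 3.04 across the alternatives. Sox11 rose by 2.56 ± 0.13, and Stat3, the cytokine-responsive factor that acts on the Gfap promoter, rose by 1.62 ± 0.16. Nfix fell by 0.65 ± 0.15, but by 0.29 in the unscaled value table, where it did not pass. Hes5 and Nfix did not pass without either normal brain array, nor Hes1 without replicate 2. The count of 9 rested on both normal brain arrays and was 4 without replicate 1 and 3 without replicate 2.

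**Figure D3:**
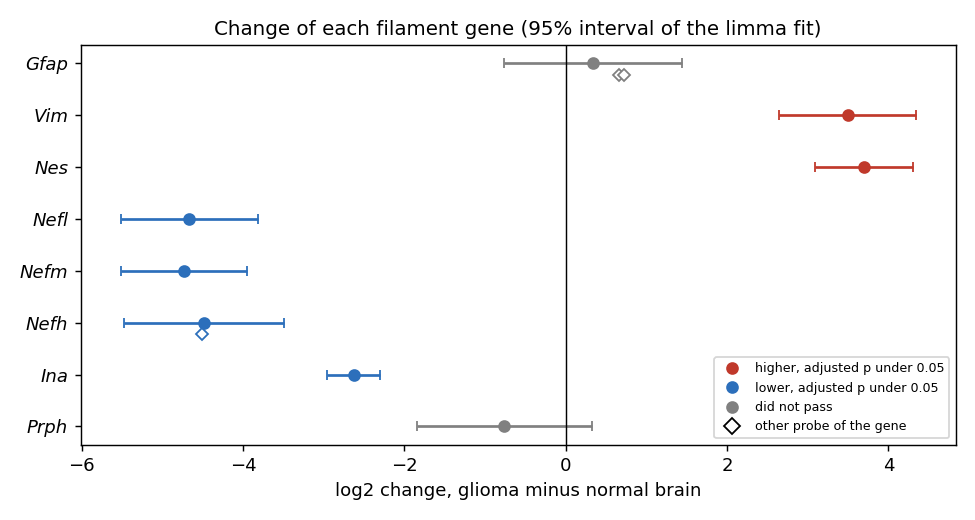
Log2 change, glioma minus normal brain, of each filament gene on its brightest probe (circles, with the 95% interval of the limma fit) and on its other probes (open diamonds, for Gfap and Nefh). Vim and Nes lie between 3.5 and 3.7, the neurofilament subunits between -4.73 and -4.49, Ina at -2.63, and the intervals of Gfap and Prph span 0.

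The light neurofilament subunit Nefl, the core on which neurofilaments assemble, had levels of 1.08, 0.38 and 0.01 in gliomas 1 to 3, against 5.14 and 5.18 in normal brain. The normal brain samples were 0.04 apart and the gliomas spanned 1.06, with glioma 1 the highest of them. Nefl fell by 4.67 ± 0.33 on the log2 scale (limma adjusted p = 0.000609), 25.4-fold.

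The medium subunit Nefm, whose long tail spaces the filaments in axons, had levels of -0.92, -1.89 and -1.53 in gliomas 1 to 3, against 3.26 and 3.30 in normal brain. Its probe is printed 10 times on each array, and these values are means over the repeated spots. Nefm fell by 4.73 ± 0.31 (limma adjusted p = 0.000521), which ranked 57 among the 16891 genes tested, counted from the largest fall.

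The heavy subunit Nefh, added last as axons mature, had levels of 1.14, -0.09 and 0.20 in gliomas 1 to 3, against 4.85 and 4.96 in normal brain. It fell by 4.49 ± 0.39 (limma adjusted p = 0.0009). Its other probe, A_55_P2099790, read -2.73, -3.87 and -3.40 in gliomas 1 to 3, against 1.15 and 1.22, a change of -4.51 ± 0.35. Both probes placed glioma 1 highest and glioma 2 lowest of the gliomas.

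Alpha-internexin, the fourth neuronal filament gene that passed as lower, had levels of 2.49, 2.56 and 2.48 in gliomas 1 to 3, against 5.17 and 5.11 in normal brain. The gliomas spanned 0.08, the narrowest of the 8 genes, where the neurofilament subunits spanned 0.97 to 1.23. Ina fell by 2.63 ± 0.13, with a 95% interval of -2.96 to -2.30 (limma adjusted p = 0.000389). The difference between the changes of a subunit and of Ina was -2.03 for Nefl, -2.10 for Nefm and -1.86 for Nefh. With 3 arrays against 2, an exact permutation test whose two-sided p is 2 times the smaller one-sided p cannot go below 0.2, the value it gave for these 3 pairs (adjusted p = 0.3 over 9 pairs), so these differences are given as values and not as a result of the test. Between the subunits the changes differed by 0.06 (Nefl and Nefm), -0.18 (Nefl and Nefh) and -0.24 (Nefm and Nefh), with exact permutation p-values of 0.8, 0.6 and 0.2. Vim and Nes differed in their changes from Gfap by 3.16 and 3.36 (exact permutation p = 0.2 each).

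Peripherin did not pass. Prph had levels of -4.17, -2.94 and -3.17 in gliomas 1 to 3, against -2.40 and -2.93 in normal brain. Glioma 1 was the lowest, and gliomas 2 and 3 lay close to normal brain 2, from which glioma 2 was separated by only the last digit given. The change was -0.76 ± 0.42, with a 95% interval of -1.84 to 0.32 (limma adjusted p = 0.188). Of 8 tested markers of brainstem, motor and peripheral-type neurons, 5 passed as lower and 2 as higher, with a median of -2.07. Among all genes tested 27.8% passed as lower and 23.6% as higher. Isl1, a motor neuron factor detected on 2 of 3 glioma arrays, fell by 3.73 ± 0.23 (-3.92 to -2.05 across the alternatives), while the hindbrain homeobox gene Hoxa5 and the serotonin synthesis gene Tph2 were higher in glioma by at least 25.6-fold (Hoxa5) and at least 11.8-fold (Tph2).

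Neuronal genes that are not filaments fell as well. All 14 such markers passed as lower in glioma, beside 27.8% of all genes tested, with a median of -3.17. Their range was from -3.78 ± 0.18 (Camk2a, a synaptic kinase) to -0.90 ± 0.17 (Map2, a dendritic microtubule protein). Stmn2, a growth-associated tubulin regulator, fell by 3.57 ± 0.29. Map2 did not pass without either normal brain array. The changes of Nefl, Nefm and Nefh lay beyond this range and that of Ina within it. Of 8 markers of large, fast-firing projection neurons and interneurons, which carry many neurofilaments, 7 passed as lower, with a median of -3.68, and 2 of them, Slc17a6 (-5.97 ± 0.42) and Pvalb (-4.88 ± 0.33), had larger falls than any neurofilament subunit. The part of neuron number in the neurofilament values was not tested.

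**Figure D4:**
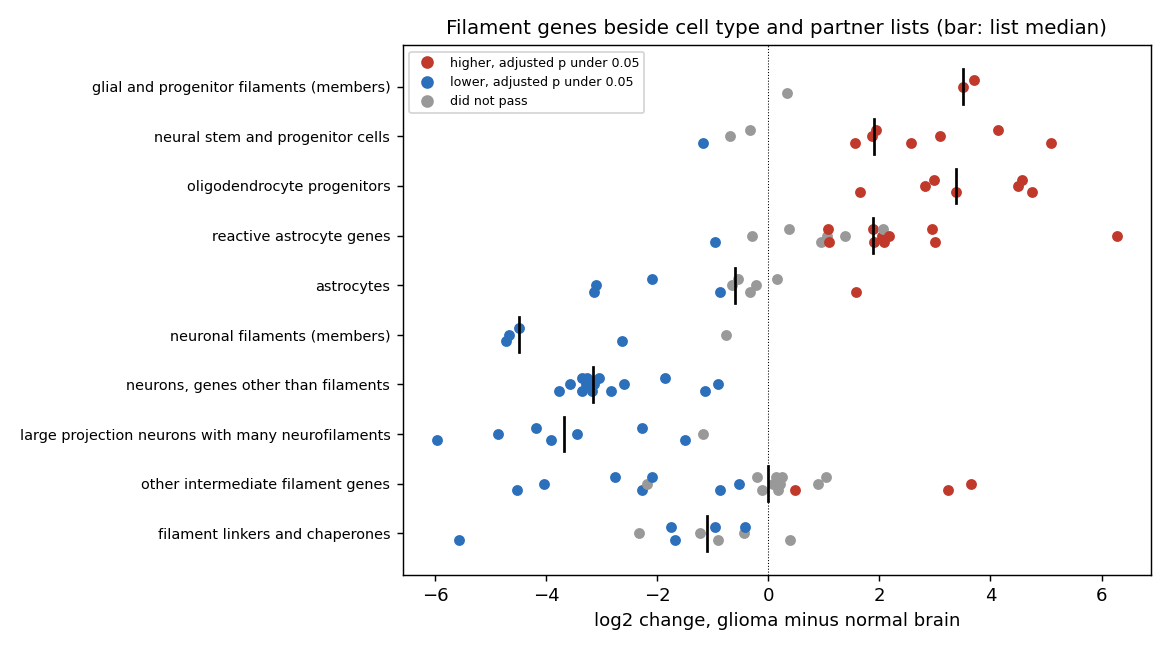
Fitted log2 change, glioma minus normal brain, of every tested gene of the filament groups and of marker and partner lists (points, red higher and blue lower at an adjusted p under 0.05, grey not passed), with a bar at each list's median. The neurofilament subunits lie to the left of all 14 other neuron markers, and Vim and Nes lie among the progenitor markers.

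Position in the genome was shared by 2 members. Nefl and Nefm are next to each other on chromosome 14 in the RefSeq annotation, with no protein-coding gene between them, and their changes were -4.67 and -4.73. The next protein-coding gene on the Nefl side, Dock5, fell by 3.07 ± 0.31, and the one on the Nefm side, Adam7, was not among the genes tested. Gfap and Nefh are both on chromosome 11 and not neighbours. Beside Gfap lies Kif18b, a mitotic kinesin gene that rose by 6.23 ± 0.27. Nes is followed by Bcan, the gene of the brain proteoglycan brevican, which rose by 2.05 ± 0.15, while on its other side Crabp2 did not pass (0.00 ± 0.24).

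Similarity of pattern was the root mean square distance of the 5 levels after each gene was centred on its mean. Of 14859 genes detected on all arrays, 14157 remained without clone names. The genes with the most similar patterns were sought among these, leaving out the 8 filament genes themselves. For Ina these were Grip2, Ankrd13d and Slc24a4, at distances of 0.022 to 0.049, for Nefm they were Pvalb, Hs3st4 and Nrip3 (0.096 to 0.195), for Nefh Gabra5, Syt4 and Nrip3 (0.102 to 0.159), and for Nefl Htr2c, Rph3a and Car12 (0.172 to 0.202). For Vim they were Kntc1, Fbxo5 and Tagln2 (0.071 to 0.096), for Nes Tedc1 and Grhl2 (0.082 and 0.141), for Gfap Cchcr1, Arhgap4 and Apoc1 (0.038 to 0.117), and for Prph H2bc6, Lgals4 and Mrgprf (0.184 to 0.199). Within the 8 genes, Nefm and Nefh were closest (0.165), and Vim and Nes were 0.358 apart. With 5 arrays in 2 groups, these distances mostly reflect the size of the group difference.

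The rest of the intermediate filament family changed in both directions. Of 22 other family genes, 20 were tested, 3 passed as higher and 7 as lower, and 10 did not pass, with a median of -0.02, against -0.05 over all genes tested. Of all genes tested, 51.4% passed, 23.6% as higher and 27.8% as lower, so passing was about as common in the family as elsewhere. Lamin B1 (Lmnb1), a filament of the nuclear lamina, rose by 3.65 ± 0.32 (limma adjusted p = 0.000898), with levels of 3.06, 3.63 and 2.61 in gliomas 1 to 3, against -0.59 and -0.51 in normal brain. The lens filament gene Bfsp1 rose by 3.24 ± 0.30 and its partner in lens filaments, Bfsp2, fell by 2.27 ± 0.52. Lamin B2 (Lmnb2) rose by 0.48 ± 0.14 and lamin A/C (Lmna) fell by 0.88 ± 0.20. Of these, Lmna fell by 0.52 and did not pass in the unscaled value table (adjusted p = 0.103), Bfsp2 did not pass without normal brain replicate 1 (-1.76, adjusted p = 0.1), and Lmnb2 did not pass without either of gliomas 1 and 2 (0.49 and 0.43). With the replicate number as a block, neither Bfsp2 (limma adjusted p = 0.0718) nor Lmnb2 (limma adjusted p = 0.0724) passed. Without normal brain replicate 1 or 2, Lmna and Lmnb2 did not pass either, and the family's count of lower genes was 2.

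Keratins, the filaments of epithelia, were lower where they passed in the main comparison. Krt5, Krt7, Krt10, Krt12 and Krt14 did not pass, and Krt19 and Krt20 were not tested because they missed the detection filter. Krt12, not well above background in normal brain, passed as higher without glioma replicate 2 (2.80, limma adjusted p = 0.0222). Krt10 passed as lower as a mean over probes (-0.65). Krt8 and Krt15 were not well above background in any glioma and were lower there by at least 7.36-fold (Krt8) and at least 9.99-fold (Krt15), and Krt18, the polymerisation partner of Krt8, fell by 2.77 ± 0.19. Krt222 and Krt80 fell by 2.09 ± 0.62 and 0.53 ± 0.16. Krt222 did not pass in 4 of 13 alternatives: the unscaled value table (-1.73, limma adjusted p = 0.063), without glioma replicate 2 (-2.21) and without either normal brain array. Krt80 did not pass in 8 of 13, which were median scaling, no detection filter, the unscaled value table (-0.17, limma adjusted p = 0.564), the replicate block, and without glioma replicate 1 or 3 or either normal brain array. Desmoplakin (Dsp), which anchors keratins at cell junctions, was at least 18.9-fold lower. All 5 markers of the choroid plexus, an epithelium, passed as lower in glioma as well, beside 27.8% of all genes tested. Their median was -7.60 and their summed log2 signal -2.53, -2.02 and -1.93 in gliomas 1 to 3, against 7.94 and 7.90 in normal brain. In normal brain this sum is mostly Ttr, which alone read 7.85 and 7.80 there. The part of choroid plexus cells in the keratin values was not tested.

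Synemin (Synm), which polymerises with vimentin, nestin or Gfap, varied between the gliomas more than any member. Its levels were 3.6, -0.61 and 0.56 in gliomas 1 to 3, against 1.06 and 1.05 in normal brain, a change of 0.13 ± 1.25 that did not pass (limma adjusted p = 0.936). Glioma 1 was above normal brain and the other gliomas below it. The growth factor receptor gene Igf1r, on chromosome 7 like Synm, read 7.36, 2.02 and 3.54 in gliomas 1 to 3, against 2.05 and 2.08. Glioma 1 was again the highest, and Igf1r did not pass either (2.24 ± 1.58, limma adjusted p = 0.283).

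Genes that link, modify or carry filaments were mixed. Of 10 linker and chaperone genes, 5 passed as lower and none as higher, with a median of -1.10, and 2 were lower in the unscaled value table. The shares over all genes tested were 27.8% lower and 23.6% higher. Plectin (Plec), which ties intermediate filaments to the rest of the cytoskeleton, fell by 1.76 ± 0.21, and envoplakin (Evpl), a plakin of epithelia, fell by 1.68 ± 0.43. Evpl did not pass in the unscaled value table or without either normal brain array. The counts of this list fell to 1 lower gene without normal brain replicate 1 or 2, and 1 gene, Tchp, passed as higher without glioma replicate 1 (0.52). Of 16 kinase, turnover and transport genes, 4 passed as higher and 9 as lower, with a median of -0.51. The mitotic kinases Cdk1 and Plk1, which phosphorylate vimentin as cells divide, were at least 33.6-fold higher and higher by 3.87 ± 0.27 on the log2 scale. The kinesin motors Kif5a and Kif5c, of which Kif5a carries neurofilaments along axons, changed by -2.94 ± 0.20 and -2.45 ± 0.27. Across the alternatives Kif5a changed by -3.08 to -0.90 and Kif5c by -2.64 to -2.10.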

How the data were processed

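Total RNA of 3 gliomas and 2 normal brain samples was labelled with Cy3 and measured on single-colour Agilent 8x60K mouse arrays. The authors' intensity values are background-subtracted processed signals, per the file headers. The submitters' processing notes name Feature Extraction, version 10.7.3.1. Detection and outlier flags of each spot (0 or 1) come from the same deposited files. The table of the authors' own values is on the log2 scale. Set against the scanner signal after log2, its median difference was 0 on every array, so it is neither scaled nor centred.

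Control spots and outlier spots were left out, repeated spots averaged, and the log2 signal scaled to each array's 75th percentile. Of 55681 probes, 28026 were named through RefSeq accessions (GRCm38.p6 table). Each gene was represented by its brightest probe, and the 16891 genes that passed a filter (at least 2 arrays well above background) were fitted with limma 3.58.1 in R 4.3.3, with Python 3.11.15 and matplotlib 3.10.9 for sequences and figures. The fit was tested on simulated data. Bounds of undetected genes are taken against each array's lowest detected signal, or the gene's own where higher. Alternatives covered scaling, background correction (normexp, offset 50, on the median spot signal in place of the planned mean spot signal), probe choice, detection filter, a replicate block and each array left out.

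The filament genes and all lists were chosen with earlier results of these data known. Text names all filament genes, every passing gene of the wider family, the largest changes and extremes of each list (not all are printed), and the 3 nearest patterns, of which 1 is not reported here. Genes singled out otherwise (Synm, Igf1r, Aldoc, keratins that did not pass or were not tested, chromosomal neighbours) were chosen after their values were seen. Lists are described by counts, without set tests.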

Additional observations from a re-analysis of the deposited data

How the results depend on the processing

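Vim, Nes, Nefl, Nefm, Nefh and Ina passed in the same direction, and Gfap and Prph did not pass, under every alternative run. Across these alternatives the log2 changes ranged from 3.20 to 3.86 for Vim, 3.43 to 4.06 for Nes, -4.96 to -4.31 for Nefl, -4.99 to -4.37 for Nefm, -4.85 to -4.13 for Nefh, -2.66 to -2.27 for Ina and -1.02 to -0.39 for Prph, with adjusted p-values of at most 0.0131 for the 6 that passed and at least 0.126 for Prph. Gfap changed sign without glioma replicate 2 (-0.07), and leaving out 1 array gave -0.07 to 0.60, with 0.70 in the unscaled value table. Replicate numbers are shared by the groups, but no label pairs the samples. Deviations of same-numbered samples correlated at 0.038 and 0.039. With 2 normal brain arrays their deviations mirror each other, so these values cannot decide whether the samples are paired. With the replicate number as a block, 8263 genes passed against 8687 without it, and Gfap changed by 0.49 and Prph by -0.89, neither passing, and no call of the 8 filament genes changed, while of the other genes named Bfsp2, Lmnb2 and Krt80 lost theirs. In the unscaled value table the median change of all genes was 0.31 instead of -0.05, and 63.7% of the genes that passed were higher instead of 46.0%. The count of passing genes was between 4422 and 9434 with 1 array left out, 1958 to 4385 of them higher and 2434 to 5049 lower, the lowest totals being without normal brain replicate 1 (4434) or 2 (4422), where 1 array stands for its group and is assumed to vary like the gliomas. The list counts also rested on both normal brain arrays: without replicate 1 or 2, 5 reactive astrocyte genes passed as higher in place of 10, and 1 microglia and macrophage marker in place of 4, with 2 of these without glioma replicate 1. Endothelial markers lower were 4 in place of 7 and ependymal 1 in place of 5 without either normal brain array, and astrocyte markers lower were 2 in place of 4 without normal brain replicate 1. The losses of single genes stand beside their values, with Timp1 at 1.38 under normexp. Krt8 and Krt15 have only bounds, since no glioma array measured them above background.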
